A study of Mus musculus with 9 samples.

Results

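Gene expression in the brains of 5xFAD mice treated with amylin was compared with that of wild-type mice, to describe what still differed from wild type under the treatment. The comparison holds 6 of the 9 arrays of the series, taken by the group names in their labels: 3 of 5xFAD mice injected with human amylin and 3 of B6SJLF1/J wild-type mice injected with phosphate-buffered saline (PBS). The other 3 arrays, of 5xFAD mice injected with PBS (the vehicle group), are given beside it. All injections were intraperitoneal and daily for 10 weeks, and the mice were about 5 months old. The 5xFAD line carries mutant human transgenes, APP among them, driven by the Thy1 promoter, which is active in neurons, and deposits amyloid in the brain. No wild-type mice received amylin, so the effects of transgenes and treatment cannot be told apart in this comparison. Each array is labelled as a biological replicate of total RNA from brain tissues, and the title of the series names the cortex. Log2 values of 19938 genes were tested, and the median over all 35556 probe sets of an array lay between 5.71 and 5.79. A difference below is the mean of the amylin arrays minus that of the wild-type arrays, on the log2 scale, with its standard error (SE).

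Amylin is a peptide hormone that pancreatic beta cells release with insulin. It binds receptors made of the calcitonin receptor and a receptor activity-modifying protein (RAMP). Microglia, the resident macrophages of the brain, gather around amyloid plaques and take on a state called disease-associated. Signals from the receptor TREM2 through its adaptor TYROBP are needed for the full form of that state. Astrocytes near plaques also become reactive and make more of the filament protein GFAP.

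The largest single increases were of the microglial genes Cst7 and Ccl3, and the gene list with the highest median was that of striatal neurons. In all 1039 genes were called changed (5.21% of those tested, limma with a Benjamini-Hochberg adjusted p under 0.05), 468 higher (2.35%) and 571 lower (2.86%) in amylin-treated 5xFAD mice. At an unadjusted p under 0.05 there were 3824. The differences were mostly small: 108 called genes differed at least 2-fold, 73 higher and 35 lower, and 10 at least 4-fold, 9 of them higher. The arrays of the 2 groups did not overlap for any of the 1039 called genes, against 23.1% of all genes tested. The median difference over all genes was -0.01. The vehicle group, set against the same wild-type arrays, had 1710 called genes (8.58%), 729 higher (3.66%) and 981 lower (4.92%). A direct test of amylin against vehicle called 1 gene (0.00502%), and 1375 genes had an unadjusted p under 0.05 there. The count of 1039 fell to 447 without wild-type replicate 1, to 602 and 596 without wild-type replicates 2 and 3, and to 548 without amylin replicate 3. The genes that stayed called without each of the 9 arrays in turn numbered 377, of which 187 were higher and 190 lower. Called genes named below are among them unless the arrays that end the call are given.

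**Figure D1:**
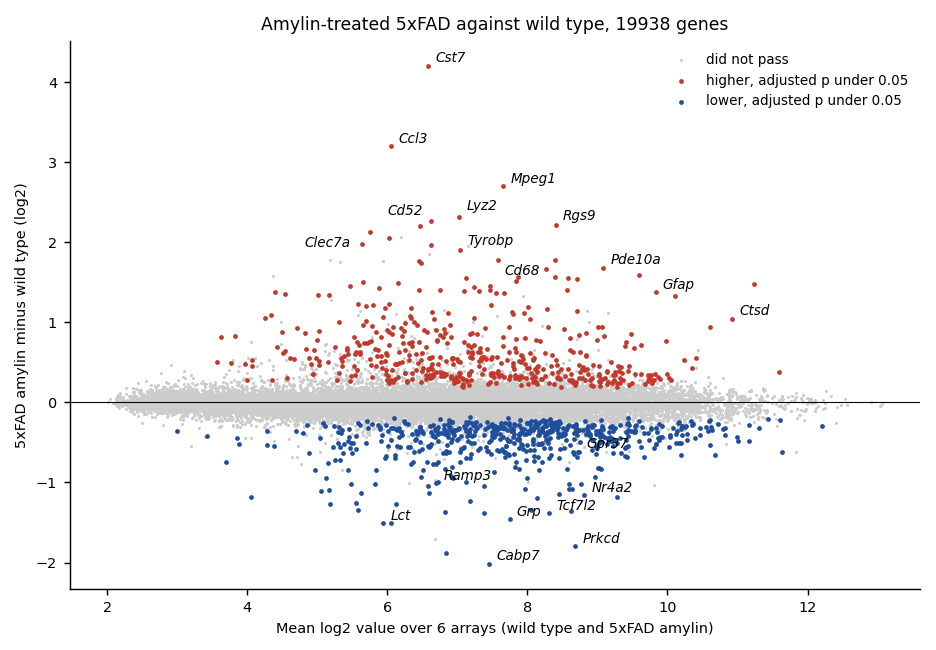
Difference of amylin-treated 5xFAD from wild-type mice (log2, vertical axis) against the mean log2 value over the 6 arrays of both groups (horizontal axis), with 1 point per gene. The 468 genes called higher are red and the 571 called lower are blue; Cst7 and Ccl3 lie farthest above 0, and Cabp7 lies farthest below.

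Markers of regions outside the cortex differed between the wild-type arrays and the amylin arrays, and these values stand beside every result that follows. Of 25 measured markers of striatal projection neurons, 22 rose and 0 fell, where 2.35% of all genes were called higher. The median difference was 0.99, against -0.01 over all genes. Rgs9, a regulator of G-protein signalling abundant in the striatum, was 7.32, 7.14 and 7.42 on the wild-type arrays and 9.56, 9.45 and 9.52 on the amylin arrays. The groups were far apart, with a difference of 2.21 ± 0.09 (SE; limma adjusted p = 7.04e-06). The phosphodiesterase Pde10a differed by 1.68 ± 0.10, the dopamine receptor Drd1 by 1.52 ± 0.09, the orphan receptor Gpr6 by 1.46 ± 0.09 and the retinoic acid receptor Rarb by 1.36 ± 0.08. Gpr52, another orphan receptor of striatal neurons but outside the list, was among the 15 largest increases of all genes, at 1.78 ± 0.13. The vehicle group had 22 striatal markers called higher and a median of 1.02. In bulk tissue, a change in the number of cells of a type and a change in RNA per cell cannot be told apart. Whether dissection differed between the groups was not tested.

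Hippocampal and thalamic markers were lower than in wild type. Of 23 hippocampal markers 0 rose and 15 fell, with a median of -0.67, where 2.86% of all genes were called lower. Cabp7, a calcium-binding protein enriched in the hippocampus, showed the largest decrease of all called genes. It was 8.64, 8.31 and 8.43 in wild type and 6.40, 6.59 and 6.36 under amylin, so that all 3 amylin arrays lay well below (difference -2.01 ± 0.09, limma adjusted p = 1.41e-05). Prox1, the transcription factor of dentate granule cells, differed by -1.39 ± 0.14, Lct by -1.51 ± 0.18, Dsp by -1.27 ± 0.15, Spink8 by -1.27 ± 0.10 and Fibcd1 by -1.04 ± 0.09. Of 25 thalamic markers 0 rose and 17 fell (median -0.54), though 9 were called without wild-type replicate 1 and 11 without amylin replicate 3. Prkcd, a protein kinase C of thalamic neurons, was 9.68, 9.66 and 9.41 in wild type and 7.48, 8.54 and 7.34 under amylin, with replicate 2 nearest to wild type. Its difference was -1.80 ± 0.30. The transcription factors Tcf7l2 (-1.39 ± 0.21), Shox2 (-1.34 ± 0.21) and Lef1 (-0.84 ± 0.12), with Plekhg1 (-1.34 ± 0.20), fell too. Lhx9, a transcription factor outside the list, was among the 15 largest decreases of all genes (-1.51 ± 0.14). In vehicle mice 17 hippocampal and 18 thalamic markers were called lower.

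The remaining regional lists set single arrays apart. Of 23 olfactory bulb markers 4 rose and 1 fell (21.7%, against 5.21% of all genes tested), with a median of 0.80. The mean of that list was 7.48, 6.82 and 7.55 on the amylin arrays, so replicate 2 was low, against 6.71, 6.43 and 6.54 in wild type. The count called was 2 without amylin replicate 1 or 3, wild-type replicate 2 or 3 or vehicle replicate 3, 3 without wild-type replicate 1, 9 without vehicle replicate 1 and 11 without amylin replicate 2. Eomes, a transcription factor of bulb projection neurons, differed by 2.13 ± 0.47, a call lost without amylin replicate 1 or 3, vehicle replicate 3 or any wild-type array (adjusted p up to 0.106). Meis2, a homeodomain factor that is also on the striatal list, kept its call, with 9.40, 9.30 and 9.62 in wild type, 10.95, 10.32 and 11.05 under amylin and a difference of 1.33 ± 0.19.

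Hypothalamic markers gave 3 increases among 25, and 0 or 1 was called without any 1 of the wild-type arrays, the amylin arrays or vehicle replicate 3. The neuropeptide Oxt was 6.60, 6.91 and 6.80 in wild type, 8.12, 8.41 and 7.99 under amylin and 8.22, 6.75 and 6.90 on vehicle. Its difference was 1.40 ± 0.32, a call lost without any 1 of the wild-type or amylin arrays (adjusted p up to 0.148). Of 22 midbrain and hindbrain markers 2 rose and 3 fell (22.7%). The mean of the list was 6.14, 5.57 and 5.57 in wild type, with replicate 1 high, and 5.47, 5.39 and 5.35 under amylin. The counts called there were 8 without amylin replicate 1 and 2 without amylin replicate 3. Of the 22 means of that list 18 lay below wild type and 4 above, with a median difference of -0.33. Chat, the enzyme that makes acetylcholine, was one of the 2 genes that rose (0.74 ± 0.09), against the direction of most of the list. The receptor subunit Glra1 of inhibitory glycine receptors fell by 1.88 ± 0.35, a call lost without amylin replicate 3 or wild-type replicate 1 (adjusted p up to 0.074). Markers of cortical layers gave 4 increases and 2 decreases of 27 (22.2%), and 3 were called without any 1 wild-type array or without amylin replicate 3. Their list mean was 8.25, 8.31 and 8.34 in wild type and 8.39, 8.27 and 8.34 under amylin, so these groups overlapped. Of 23 markers of choroid plexus and meninges 0 rose and 2 fell (8.7%): Dcn, a proteoglycan of meningeal fibroblasts (-1.08 ± 0.18), and the choroid factor Otx2 (-0.67 ± 0.11).

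**Figure D2:**
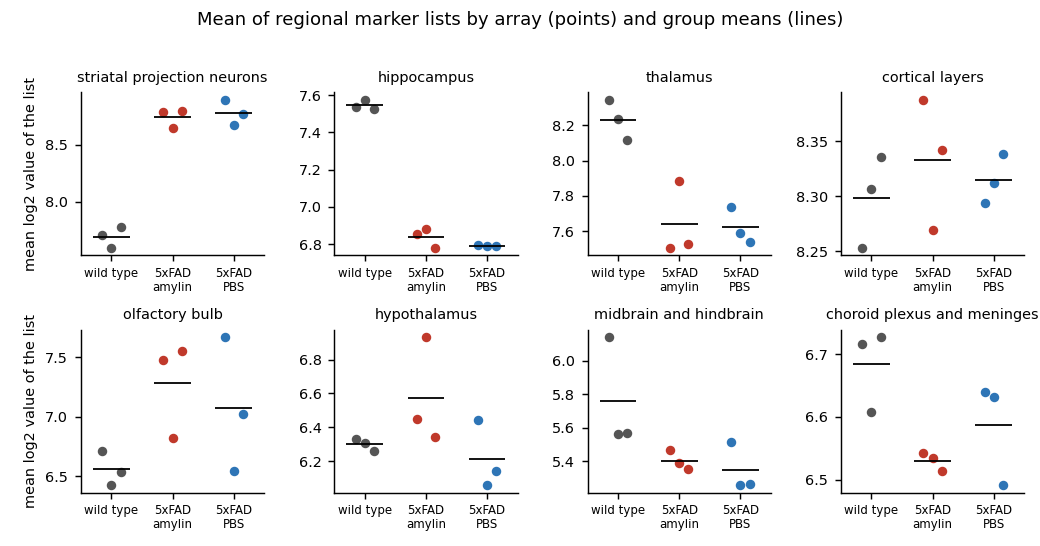
Mean log2 value of 8 lists of regional markers on each of the 9 arrays (vertical axes, which differ between panels and do not start at 0), with points for replicates 1 to 3 from left to right and lines for group means. Wild-type arrays lie below both 5xFAD groups for the striatal list and above them for the hippocampal and thalamic lists, and amylin replicate 2 is low for olfactory bulb markers and high for hypothalamic ones.

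Microglial genes were higher in amylin-treated 5xFAD mice than in wild type. The list for disease-associated microglia had 37 measured genes, of which 17 rose, 0 fell and 20 did not pass, where 2.35% of all genes were called higher. The median difference of the list was 0.52, and 13 of its genes were called without each array in turn. In vehicle mice 25 of these genes were called higher and the median was 0.92. Cst7, a cysteine protease inhibitor that microglia make near plaques, had the largest difference of all genes tested. It was 4.34, 4.40 and 4.71 on the wild-type arrays, 8.58, 9.15 and 8.34 on the amylin arrays and 8.71, 10.03 and 9.48 on the vehicle arrays. Every amylin array thus lay far above wild type, with a difference of 4.21 ± 0.30 (limma adjusted p = 0.000163). The wild-type values are dim and were not shown to be above background, so no fold is given.

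The chemokine Ccl3, which attracts and activates macrophages, was 4.32, 4.41 and 4.63 in wild type and 8.08, 7.46 and 7.43 under amylin, a difference of 3.20 ± 0.25 with no overlap. Lysozyme 2 (Lyz2), an enzyme of phagocytes, differed by 2.32 ± 0.17, and Mpeg1, a pore-forming protein of the phagosome that is on no list here, by 2.70 ± 0.23. Clec7a, a receptor for beta-glucans, was 4.82, 4.60 and 4.53 in wild type and 6.94, 7.07 and 5.89 under amylin. Amylin replicate 3 was its lowest 5xFAD array, yet lay above every wild-type array (difference 1.98 ± 0.30). Cd52 differed by 2.27 ± 0.29, the chemokine Ccl6 by 2.06 ± 0.22 and the receptor Cd84 by 1.51 ± 0.14. Tyrobp was 6.14, 6.21 and 5.93 in wild type and 7.85, 8.29 and 7.84 under amylin, a difference of 1.90 ± 0.22 (limma adjusted p = 0.00174).

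Trem2, the receptor that signals through it, was 6.41, 6.41 and 6.38 in wild type and 7.42, 8.37 and 7.60 under amylin. Its amylin replicate 2 stood above the others, and the difference of 1.39 ± 0.29 (adjusted p = 0.0235) did not pass without amylin replicate 2 or 3 or any 1 wild-type array (adjusted p up to 0.0953). Apoe, which carries lipid between brain cells and binds TREM2, differed by 0.14 ± 0.05 and did not pass (limma adjusted p = 0.2).

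Genes by which resting microglia are recognised were also higher. Of 19 such genes 14 rose and 0 fell, with a median of 0.56, where 2.35% of all genes were called higher. Fewer passed without single arrays: 5 without wild-type replicate 1, 8 without wild-type replicate 2 or 3 and 9 without amylin replicate 3. P2ry12, the purine receptor that guides microglial processes, was 7.30, 7.34 and 7.24 in wild type and 7.98, 8.08 and 7.93 under amylin, a difference of 0.71 ± 0.11. Csf1r, the growth factor receptor that microglia need to survive, differed by 0.79 ± 0.12, the receptor Gpr34 by 1.23 ± 0.16, Olfml3 by 0.95 ± 0.15 and the protease inhibitor Cst3 by 0.38 ± 0.06. The chemokine receptor Cx3cr1 differed by 0.80 ± 0.14, a call lost without wild-type replicate 1 (adjusted p = 0.0677). In vehicle mice 14 of the list were called higher, with a median of 0.84.

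**Figure D3:**
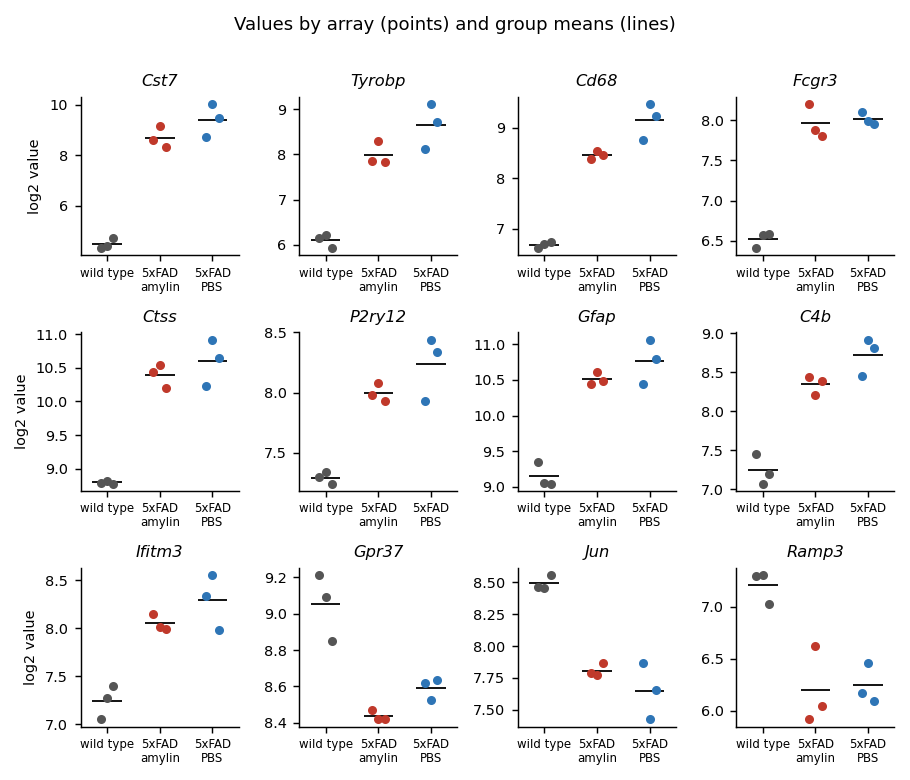
Log2 values of 12 genes on each of the 9 arrays (vertical axes, which differ between panels and do not start at 0), with points for replicates 1 to 3 from left to right and lines for group means. The wild-type and amylin arrays do not overlap in any panel; the amylin arrays lie above wild type except for Gpr37, Jun and Ramp3.

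Genes of receptors for antibody and of their signalling chain were higher. Of 18 measured genes 11 rose, 0 fell and 7 did not pass, where 2.35% of all genes were called higher. The median was 0.60, and 8 were called without wild-type replicate 1. The common gamma chain Fcer1g was 7.07, 7.17 and 7.01 in wild type and 8.64, 8.69 and 8.63 under amylin, a tight pair of groups 1.57 ± 0.17 apart. Fcgr3, an activating receptor for IgG, was 6.41, 6.58 and 6.58 against 8.20, 7.88 and 7.80 and differed by 1.44 ± 0.10 (limma adjusted p = 0.000148). The inhibitory receptor Fcgr2b differed by 1.56 ± 0.19. The lysosomal adaptor Laptm5 (1.16 ± 0.15) and the phosphatase Inpp5d (0.97 ± 0.16), which limits signals of such receptors, rose as well.

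Start-site sequences of 4 genes that rose are shown with a purine-rich motif that PU.1, a transcription factor of macrophages, is known to bind; the data do not measure its binding. The 250 bases before each start were searched for GAGGAAG on both strands, in the RefSeq promoter table of GRCm38.p6. It was found for 7 of 17 Fc receptor genes with an entry (41.2%), 5 of 14 homeostatic genes (35.7%), 3 of 13 Toll-like receptor genes (23.1%) and 5 of 29 disease-associated genes (17.2%). Among all 15614 tested genes with an entry 1902 held it (12.2%). The share was 15.8% of 19 striatal, 20.0% of 20 hippocampal, 18.2% of 22 thalamic genes and 5 of 20 myelin genes. A match is a description of the letters and not a site of binding. In the 4 stretches below, read along the strand of the gene, capitals mark the match to the motif or to its reverse complement.
Laptm5, chr4:130913247-130913313, + strand: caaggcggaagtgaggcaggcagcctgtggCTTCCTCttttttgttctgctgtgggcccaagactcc
Inpp5d, chr1:87620262-87620311, + strand: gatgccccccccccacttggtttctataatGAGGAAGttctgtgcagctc
Tlr13, chrX:106143162-106143228, + strand: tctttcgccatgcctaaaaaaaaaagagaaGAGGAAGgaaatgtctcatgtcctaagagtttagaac
Fcgr3, chr1:171059395-171059440, - strand: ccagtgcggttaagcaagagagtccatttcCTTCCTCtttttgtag

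Pattern receptors and complement followed the same direction. Of 18 Toll-like receptors and co-receptors 9 rose and 0 fell (median 0.36), with 5 called without amylin replicate 3 or without wild-type replicate 1 or 2. Cd14, the co-receptor for lipopolysaccharide, was 5.15, 5.15 and 4.99 in wild type and 6.20, 6.42 and 6.29 under amylin and differed by 1.20 ± 0.11. Cd180, a relative of Toll-like receptor proteins, differed by 1.97 ± 0.22 and Tlr13, a sensor of bacterial RNA, by 1.21 ± 0.17. Of 23 complement genes 5 rose and 0 fell (median 0.18). C3ar1, the receptor for the fragment C3a, was 5.40, 5.27 and 5.43 in wild type and 7.62, 7.75 and 7.35 under amylin, a difference of 2.21 ± 0.17. C1qa, a chain of the complex that starts the classical pathway, differed by 1.40 ± 0.23, C4b, which acts downstream of it, by 1.10 ± 0.13, and the integrin chain Itgb2 of complement receptors by 1.01 ± 0.16.

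Chemokines and cytokines moved in few members, but the share called in each list was above the 5.21% of all genes tested. Of 25 chemokines and their receptors 4 rose and 0 fell, 2 of them called without wild-type replicate 1, and the list median was 0.07. Cxcl5, a chemokine for neutrophils, was 3.63, 3.64 and 3.78 in wild type, 4.43, 4.43 and 4.45 under amylin and 4.53, 5.63 and 5.53 on vehicle. Its difference of 0.75 ± 0.23 did not pass (limma adjusted p = 0.104), while that of the vehicle group was 1.55 ± 0.23 (adjusted p = 0.00393); the first passed without vehicle replicate 1 or with only the 6 arrays compared. The list of cytokines and of NF-kB signalling held 27 measured genes, with 3 called higher and 2 called lower. The number of genes called in that list, which need not be the same ones, was 1 without wild-type replicate 2, 2 without amylin replicate 3 and 3 without amylin replicate 2 or wild-type replicate 1 or 3. Tgfb2, a growth factor of the transforming growth factor beta family, fell in all of these fits, from 7.35, 7.40 and 7.24 in wild type to 6.66, 6.39 and 6.52 under amylin (difference -0.81 ± 0.08).

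Some interferon-responsive genes rose, 26.5% of the list, where 2.35% of all genes were called higher. Of 34 such genes 9 rose and 0 fell, with a median of 0.25; 4 were called without amylin replicate 2 or 3 or any 1 wild-type array, and 5 without vehicle replicate 3. Ifitm3, which blocks entry of viruses, was 7.05, 7.27 and 7.40 in wild type and 8.15, 8.02 and 7.99 under amylin, a difference of 0.81 ± 0.14. The GTPases Irgm1 (0.63 ± 0.10) and Gbp7 (0.45 ± 0.06) and the transcription factor Irf8 (0.59 ± 0.10), which microglia also need to develop, rose. Of 18 antigen presentation genes 3 rose and 0 fell (16.7%). B2m, the light chain of class I molecules, was 9.99, 10.16 and 10.27 in wild type and 10.92, 11.16 and 11.17 under amylin and differed by 0.94 ± 0.14.

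Lysosomal and phagocytic genes also rose. Their lists share members with that of disease-associated microglia, among them Cd68, Ctsd, Ctsz, Trem2 and Tyrobp, so the counts are not separate. Of 36 lysosomal genes 12 rose and 1 fell (36.1% called against 5.21% of all genes tested, median 0.18). Only 8, 6 and 7 were called without amylin replicate 2, wild-type replicate 1 and wild-type replicate 3. Cd68, a membrane glycoprotein of macrophage lysosomes, was 6.62, 6.70 and 6.73 in wild type and 8.38, 8.55 and 8.46 under amylin, 1.78 ± 0.15 apart. The proteases cathepsin S (Ctss), D (Ctsd) and Z (Ctsz) differed by 1.60 ± 0.15, 1.05 ± 0.12 and 1.14 ± 0.16, and the membrane protein Lamp2 by 0.36 ± 0.05. Of 27 genes of phagocytosis and lipid handling 9 rose and 0 fell (33.3%), with 5 called without wild-type replicate 1. Pros1, a ligand that marks dying cells for uptake, differed by 0.85 ± 0.12, the phospholipase Pld4 by 0.76 ± 0.12 and the lipid exporter Abca1 by 0.59 ± 0.09.

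Most markers of other immune cells and of blood did not pass the test, but many of them were dim, where differences are compressed. The mean log2 value was under 5 for 16 of 23 leukocyte markers and 8 of 14 markers of border-associated macrophages. The share called was 8.7% of leukocyte markers, against 5.21% of all genes tested. Of 14 markers of border-associated macrophages 0 rose and 0 fell, with 1 called without wild-type replicate 2; their list mean was 4.92, 4.95 and 4.97 in wild type and 5.12, 4.94 and 5.01 under amylin. Of 23 markers of infiltrating leukocytes 1 rose and 1 fell, and 1 was called without amylin replicate 3 or wild-type replicate 2 or 3. The list mean was 4.40, 4.43 and 4.44 in wild type and 4.52, 4.40 and 4.38 under amylin. Cd4 was the one that rose, by 0.74 ± 0.07, while the T cell chain Cd3e was 5.11, 5.01 and 5.06 in wild type and 5.08, 4.98 and 4.84 under amylin. Of 4 red blood cell markers 0 changed. Endothelial and pericyte markers gave 1 increase of 28 (3.57%), Slco1a4, a transporter of the blood-brain barrier (0.49 ± 0.08). Without amylin replicate 2, 2 were called.

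Most astrocyte genes did not pass, 25 of 32 on the reactive list and 18 of 22 on the general list. The shares called were 21.9% and 18.2%, against 5.21% of all genes tested. Of 32 genes of reactive astrocytes 7 rose and 0 fell, with a median of 0.13. Gfap was 9.34, 9.05 and 9.04 in wild type, 10.45, 10.61 and 10.48 under amylin and 10.45, 11.07 and 10.80 on vehicle, and its difference of 1.37 ± 0.14 is a 2.59-fold higher level (limma adjusted p = 0.000993). Osmr, the receptor for oncostatin M, differed by 1.40 ± 0.17, the proteoglycan core protein Srgn by 0.85 ± 0.09 and the transcription factor Stat3 by 0.42 ± 0.07. Among 22 general astrocyte markers Gfap alone rose and 3 fell. The cell adhesion protein Hepacam differed by -0.35 ± 0.06 (call lost without wild-type replicate 1), the amino acid transporter Slc7a10 by -0.32 ± 0.06 (lost without wild-type replicate 1 or amylin replicate 3) and the receptor Ntsr2 by -0.30 ± 0.06. The last call was lost without amylin replicate 2 or 3 or wild-type replicate 1 or 3. Adjusted p reached 0.0533, 0.0565 and 0.0637 in those fits, and 1 marker of the list was called without wild-type replicate 1 and 2 without amylin replicate 3.

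Myelin genes were lower under amylin than in wild type. Of 26 genes of myelin and oligodendrocytes 0 rose and 9 fell, where 2.86% of all genes were called lower, and the median was -0.27. The list depended on single arrays: 2 were called without wild-type replicate 1, and 4 without wild-type replicate 2 or without amylin replicate 1 or 3. The mean of the list was 8.96, 8.81 and 8.69 on the wild-type arrays, highest in replicate 1, 8.42, 8.54 and 8.54 on the amylin arrays and 8.59, 8.73 and 8.66 on the vehicle arrays. Gpr37, a receptor of myelinating oligodendrocytes, was 9.21, 9.09 and 8.85 in wild type and 8.47, 8.42 and 8.42 under amylin, a difference of -0.62 ± 0.08 (limma adjusted p = 0.00373). Fa2h, which makes hydroxylated lipids of the myelin sheath, was 8.48, 8.16 and 8.18 against 7.52, 7.67 and 7.83 and differed by -0.60 ± 0.10. The adhesion protein Mag of the inner myelin layer differed by -0.69 ± 0.13, a call lost without wild-type replicate 1 (adjusted p = 0.0803). In vehicle mice 5 of the list were called lower, with a median of -0.18. Oligodendrocyte precursors gave 2 decreases of 15 markers, and 0 were called without any 1 wild-type array, amylin replicate 3 or vehicle replicate 3, and 1 without vehicle replicate 1 or 2.

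**Figure D4:**
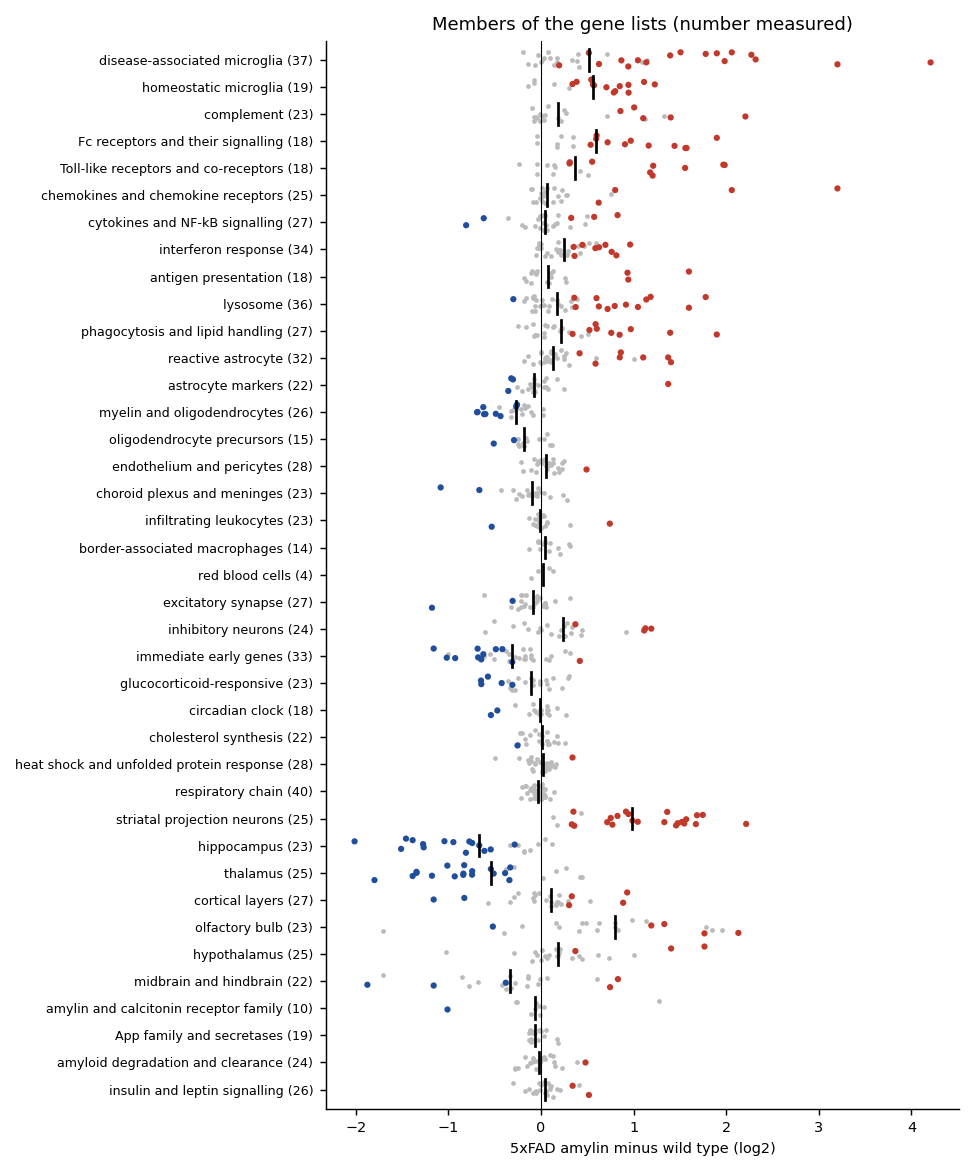
Difference of amylin-treated 5xFAD from wild-type mice (log2, horizontal axis) for the measured members of 39 gene lists, with 1 point per gene and a black bar at the median of each list. Members called higher are red, those called lower are blue and those that did not pass are grey; the striatal list has the highest median (0.99) and the hippocampal list the lowest (-0.67).

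Some genes that respond to neuronal activity were lower. Of 33 immediate early genes 1 rose, 10 fell and 22 did not pass (median -0.31). The share called was 33.3%, against 5.21% of all genes tested. Only 3 or 4 were called without any 1 of the wild-type arrays, amylin replicate 2 or amylin replicate 3. Jun, a subunit of the AP-1 factor, was 8.47, 8.46 and 8.55 in wild type and 7.79, 7.77 and 7.87 under amylin, a difference of -0.68 ± 0.10. The nuclear receptor Nr4a2, also on the lists of cortical layers and of midbrain and hindbrain, differed by -1.16 ± 0.12. Fos, the partner of JUN, was 7.01, 6.79 and 7.03 against 6.36, 6.09 and 5.59 and differed by -0.93 ± 0.17, a call lost without wild-type replicate 1 or 3 (adjusted p up to 0.0799). Rgs2, which damps G-protein signals, was the member that rose (0.42 ± 0.07). In vehicle mice 4 members were called lower and the median was -0.27.

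Most genes of the 2 neuronal lists did not pass. The shares called were 7.41% for excitatory synapses and 16.7% for inhibitory neurons, against 5.21% of all genes tested. Of 27 genes of excitatory synapses 0 rose and 2 fell, and 0 or 1 was called without any 1 wild-type array or without amylin replicate 1 or 3. Slc17a6, the vesicular glutamate transporter of thalamic and other subcortical neurons, which is also on the thalamic list, was 10.16, 9.94 and 9.51 in wild type and 8.39, 9.27 and 8.41 under amylin. Its difference was -1.18 ± 0.23, a call lost without amylin replicate 1 or 3 or wild-type replicate 1 or 2 (adjusted p up to 0.0928) and in a fit of only the 6 arrays compared. The vesicle proteins Syn1 (-0.17 ± 0.05; adjusted p = 0.0658) and Syn2 (-0.21 ± 0.06; adjusted p = 0.0587) did not pass, though both did with the lowest 50% of genes left out and with a trended, robust prior. In vehicle mice 10 of these genes were called lower. Of 24 markers of inhibitory neurons 4 rose and 0 fell; 1 was called without amylin replicate 3, vehicle replicate 3 or any 1 wild-type array, and 2 without amylin replicate 1. The homeobox factor Dlx6 differed by 1.13 ± 0.13 in these data, beside the higher striatal markers.

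Metabolic and stress lists lay on both sides of the 5.21% of all genes that were called. The share was 0.0% for the respiratory chain, 4.55% for cholesterol synthesis and 3.57% for heat shock. It was 11.1% for clock genes and 7.69% for insulin and leptin signalling. Of 40 respiratory chain subunits 0 changed, with a median of -0.04 and differences from -0.21 to 0.14. Of 22 cholesterol synthesis genes 1 fell, Mvd (-0.26 ± 0.05), which was not called without amylin replicate 3 or wild-type replicate 1 or 3 (adjusted p up to 0.0774). Of 28 heat shock and unfolded protein genes 1 rose, the stress factor Atf4 (0.33 ± 0.06), not called without wild-type replicate 1 or 2 (adjusted p up to 0.0625); 2 genes were called without amylin replicate 1. Of 18 clock genes 2 fell, the repressor Nr1d1 (-0.47 ± 0.08) and its antagonist Rora (-0.54 ± 0.07), which is also a thalamic marker here. Of 26 insulin and leptin signalling genes 2 rose, Igf1, an insulin-like growth factor also on the list of disease-associated microglia (0.52 ± 0.06), and Foxo1 (0.34 ± 0.06). The call of Foxo1 was lost without amylin replicate 3 or wild-type replicate 2 or 3 (adjusted p up to 0.0656).

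Receptors for amylin showed a single call. Of 10 genes of the amylin and calcitonin receptor family 0 rose and 1 fell (10.0%, against 5.21% of all genes tested). Called genes numbered 2 without amylin replicate 1, vehicle replicate 1 or vehicle replicate 2. Ramp3, which turns the calcitonin receptor into an amylin receptor and is also on the thalamic list above, was 7.30, 7.30 and 7.02 in wild type, 5.92, 6.62 and 6.05 under amylin and 6.17, 6.46 and 6.10 on vehicle. The amylin arrays lay below wild type, with a difference of -1.01 ± 0.17 (limma adjusted p = 0.0105), which was 0.0559 without wild-type replicate 1. Calcr, the calcitonin receptor itself, was 4.61, 4.40 and 4.66 in wild type, 5.94, 6.29 and 5.25 under amylin and 5.84, 4.19 and 4.94 on vehicle. All amylin arrays of Calcr lay above wild type, and the difference of 1.28 ± 0.37 did not pass (adjusted p = 0.0875; 0.0275 to 0.227 over the alternatives). It passed without vehicle replicate 1 or 2, with array weights and with only the 6 arrays compared. Ramp1 (-0.06 ± 0.04), Ramp2 (-0.26 ± 0.09) and the related receptor Calcrl (-0.11 ± 0.05) did not pass, and the peptide gene Iapp was 3.46, 3.41 and 3.35 in wild type and 3.48, 3.30 and 3.40 under amylin.

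No measured gene of the App family or the secretases passed the test. Of 19 genes of the App family and the secretases 0 changed (0.0%, against 5.21% of all genes tested), with differences from -0.13 to 0.19. Without amylin replicate 1, 1 was called. App was 11.87, 11.89 and 11.92 in wild type and 11.80, 11.86 and 11.77 under amylin, and its difference of -0.08 ± 0.05 did not pass (limma adjusted p = 0.423). Thy1, whose promoter drives the human transgenes, differed by -0.13 ± 0.07 and did not pass either (adjusted p = 0.368). The probe sets are annotated to the mouse genes and do not check the human transgenes. Of 24 genes of amyloid degradation and clearance 1 rose and 0 fell (4.17%, below the share of all genes). Mme, the protease neprilysin that degrades amyloid peptide, was 6.78, 6.60 and 6.72 in wild type and 7.16, 7.001 and 7.37 under amylin, a difference of 0.48 ± 0.09; no gene of the list was called without wild-type replicate 2 or 3, where Mme reached an adjusted p of 0.062, and Mme was lost with only the 6 arrays compared, while 3 were called without vehicle replicate 1.

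Called genes of this comparison that lay nearest a difference between amylin and vehicle were taken as the 10 with the smallest p in the direct test. None of them passed that test over all genes. Igf1 was 6.49, 6.67 and 6.55 in wild type, 7.08, 7.03 and 7.16 under amylin and 7.52, 7.59 and 7.62 on vehicle. The 3 groups did not overlap and the amylin arrays lay in the middle, 0.52 ± 0.06 above wild type and differing by -0.49 ± 0.06 from vehicle (limma adjusted p = 0.18). Cd68, given above, differed by -0.69 ± 0.15 from vehicle (adjusted p = 0.495). Arhgdib, a gene expressed in blood cells, was 6.18, 6.17 and 6.20 in wild type, 6.79, 6.81 and 6.81 under amylin and 7.01, 6.97 and 7.07 on vehicle.

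Some of the same 10 were lowest under amylin. Opalin, a membrane protein of myelinating cells, was 7.54, 7.47 and 7.40 in wild type, 6.54, 6.76 and 7.02 under amylin and 7.52, 7.73 and 7.40 on vehicle. Its vehicle arrays spanned the wild-type level, and the amylin arrays lay below both (from wild type -0.69 ± 0.12, limma adjusted p = 0.0112; from vehicle -0.77 ± 0.12, adjusted p = 0.269). Without wild-type replicate 1 the first of these did not pass (adjusted p = 0.0593). Pllp, another protein of myelin though outside the list, was 9.004, 8.88 and 8.73, 8.19, 8.40 and 8.44 and 8.73, 8.77 and 8.70 in the same order of groups, -0.53 ± 0.08 from wild type and -0.39 ± 0.08 from vehicle. The ribonuclease Rnase1 was 5.71, 5.61 and 5.51, 5.03, 4.84 and 4.80 and 5.26, 5.22 and 5.26, again lowest under amylin.

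A further set was highest under amylin. Ifi207, an interferon-inducible gene, was 3.89, 3.67 and 3.81 in wild type, 5.12, 4.91 and 4.61 under amylin and 4.29, 4.19 and 4.01 on vehicle, 1.09 ± 0.12 above wild type. The reproductive hormone gene Gnrh1 was 5.17, 5.07 and 5.13, 5.72, 5.57 and 5.45 and 5.31, 5.17 and 5.15. Rp9 was 8.004, 8.08 and 8.04, 8.26, 8.34 and 8.41 and 7.88, 7.91 and 8.05, and its call against wild type was lost without amylin replicate 2 or 3 or any 1 wild-type array (adjusted p up to 0.1).

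Genes induced by glucocorticoids included the gene that differed between the 5xFAD groups. Of 23 such genes 0 rose and 5 fell against wild type (21.7%, against 5.21% of all genes tested). Without single arrays 0 (amylin replicate 3, any 1 wild-type array), 1 (amylin replicate 2) or 2 (amylin replicate 1, vehicle replicate 3) were called. Fkbp5, a chaperone of the glucocorticoid receptor, was 8.26, 8.31 and 8.39 in wild type, 8.30, 8.35 and 8.29 under amylin and 7.76, 7.80 and 7.70 on vehicle. Amylin and wild-type arrays overlapped (difference -0.01 ± 0.05, limma adjusted p = 0.959), the sign of which turned when arrays were centred on their median, and the vehicle arrays were lower. The direct difference from vehicle was 0.56 ± 0.05 (limma adjusted p = 0.0233; 0.00709 to 0.288 over the alternatives). It did not pass without vehicle replicate 3 or any 1 of the wild-type or amylin arrays (adjusted p from 0.0577 to 0.226), with the replicate number as a block (0.179) or with only the 6 arrays of the 5xFAD groups (0.288). Zbtb16, a transcription factor that glucocorticoids also induce, was 9.64, 9.69 and 9.59 in wild type, 9.20, 9.33 and 9.12 under amylin and 8.42, 8.87 and 8.59 on vehicle. It differed by -0.43 ± 0.10 from wild type (adjusted p = 0.0489), a call lost without vehicle replicate 3 or any 1 of the wild-type or amylin arrays (adjusted p up to 0.157). In vehicle mice 7 genes of the list were called lower.

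**Figure D5:**
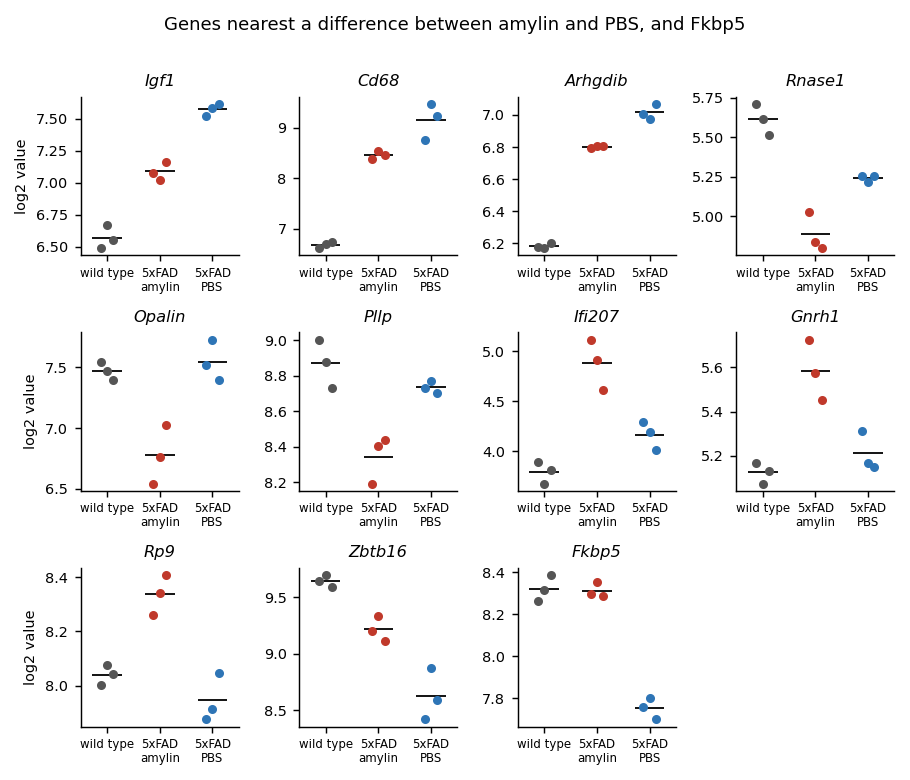
Log2 values of 11 genes on each of the 9 arrays (vertical axes, which differ between panels and do not start at 0), with points for replicates 1 to 3 from left to right and lines for group means. Igf1, Cd68 and Arhgdib lie between wild type and vehicle under amylin, Opalin, Pllp and Rnase1 are lowest under amylin, Ifi207, Gnrh1 and Rp9 are highest, and Fkbp5 overlaps wild type.

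Probe sets annotated to miRNA genes were also among those called. Given here are 2 neighbours on mouse chromosome 13, because their mature forms share a seed. Both were chosen after their values were seen. The numbers of miRNA genes tested and called are not given. These 2 therefore do not describe miRNA genes, or let-7 genes, as a group. Mirlet7f-1 was 4.91, 5.23 and 5.13 in wild type and 5.56, 5.63 and 6.05 under amylin, a difference of 0.66 ± 0.13 (limma adjusted p = 0.0228). Mirlet7d was 5.12, 5.26 and 5.51 and 5.79, 5.59 and 5.86, 0.45 ± 0.10 apart (adjusted p = 0.0334). The first call was lost without amylin replicate 3 or wild-type replicate 1 or 3 (adjusted p up to 0.104), and the second without amylin replicate 1 or 3, vehicle replicate 3 or wild-type replicate 1 or 2 (up to 0.125). In a fit of only the 6 arrays compared, neither passed. In vehicle mice the differences were 0.63 ± 0.13 and 0.49 ± 0.10. The arrays do not tell a precursor from its mature form. The mature sequences below are those of RefSeq on GRCm38.p6, with the seed (bases 2 to 8) in capitals, which is the same in both.
let-7f-5p: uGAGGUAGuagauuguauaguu
let-7d-5p: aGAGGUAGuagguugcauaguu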

How the data were processed

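Log2 intensities of 35556 probe sets on each of 9 arrays were analysed as the authors deposited them. The submitters' processing notes name RMA and the R package oligo; versions and the genome build behind the annotation are not given in the sources used here. RMA corrects background, gives the arrays a common distribution and summarises the probes, which removes any change shared by most genes and compresses differences of dim genes. Arrays give no read depth. Their number limits the precision, and the median SE of a difference was 0.07. Each array is labelled a biological replicate, but nothing says whether it holds 1 animal or a pool.

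A single gene symbol was annotated to 21789 probe sets, several to 1621 and none to 12146. By Entrez ID 21698 of the first matched RefSeq (GRCm38.p6), with 0 symbols changed. Where a gene had over 1 probe set (999 genes), the brightest by mean over all arrays stood for it. All of the resulting 19938 genes were tested, without a filter on dim signal.

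A limma model (3.58.1, R 4.3.3; tables read with the data.table package, version 1.17.8) estimated 3 group means from the 9 arrays together, with eBayes moderation and no trend. It had 6 residual degrees of freedom and 3.53 from the prior. Calls are Benjamini-Hochberg adjusted p-values under 0.05 over all genes. The code was tested on simulated data. Gene lists (39, with 862 of 940 genes measured) are described by counts and medians alone. The members and lists were chosen with earlier results of these data known. Genes could be named if they were among the 15 largest called increases or decreases with arrays that do not overlap, the 5 members of a list with the smallest p or the 10 called genes nearest to a difference from vehicle, or were fixed by name; exceptions are stated. Which of these are printed was chosen after their values were seen. Alternatives were repeated quantile normalization, median centring, leaving out the lowest 25% or 50% of genes, a trended robust prior, only the groups compared, weights for arrays, a block for the replicate number, the mean of a gene's probe sets, a 1.5-fold minimum and leaving out each array. Figures were drawn with matplotlib 3.10.9. Sequences are from RefSeq tables of GRCm38.p6.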

Additional observations from a re-analysis of the deposited data

Results flagged for a closer look

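Fkbp5 differed between the 5xFAD groups by 0.56 log2 in the direct test of amylin against vehicle (limma adjusted p = 0.0233), higher on 3 of 3 amylin arrays, while its amylin and wild-type arrays overlapped. That call was lost without vehicle replicate 3 or any 1 wild-type or amylin array. It was also lost with the replicate block (limma adjusted p = 0.179) and with only the 5xFAD arrays (0.288). Probe sets annotated to several genes are outside the comparison of single genes. Fitted apart, 16 of 1621 of them (0.987%) passed at an adjusted p under 0.05 between amylin-treated 5xFAD and wild-type mice, 13 higher and 3 lower (limma). They are not named because a signal cannot be given to 1 of their genes.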

How the results depend on the processing

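The count of 1039 genes called in amylin-treated 5xFAD against wild type stayed within 1.5 times under another quantile normalization (1167), median centring (1037), filters on the lowest 25% (1205) or 50% (1250) of genes, array weights (1350), a prior with trend and robust estimation (1240), a fit of just the 6 arrays compared (801) and the mean of all probe sets (1035). A 1.5-fold minimum left 315 genes, 190 higher and 125 lower, and 413 for vehicle against wild type and 0 for amylin against vehicle, by its own construction. Without 1 array at a time the counts ran from 447 to 1086 called, 215 to 510 higher and 232 to 576 lower for amylin against wild type, from 863 to 1779 for vehicle against wild type and from 0 to 7 for amylin against vehicle. Fits without an array have fewer samples. A fit of only the 6 5xFAD arrays also called 0 genes for amylin against vehicle, with 938 at an unadjusted p under 0.05. Same-numbered amylin and wild-type arrays had correlations of deviations from -0.06 to 0.14, so the numbers were not taken to pair the arrays; with the replicate block 1059 genes were called against wild type and 0 for amylin against vehicle, with 1411 at an unadjusted p under 0.05.

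Of 103 called genes named in the text, 82 were called under every alternative other than the fold minimum, and 71 of the 2056 values recomputed for the named genes lost their call. Signs turned for 2 genes near 0. Fkbp5 differed from wild type by 0.001 with centring and by -0.037 to 0.023 without 1 array at a time, above 0 without amylin replicate 3 (0.003) or wild-type replicate 3. Iapp differed by -0.056 to 0.033 without 1 array at a time, above 0 without amylin replicate 2 or wild-type replicate 1 (0.014). Of 702 recomputed list medians 38 moved by more than the spread between arrays. Dim genes, such as Iapp, lie near the floor of the arrays, where differences are compressed. The causes of these shifts were not tested.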
